A study of Mus musculus with 8 samples.

Results

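Tuft cells are rare chemosensory cells of hollow-organ epithelia, and 9 genes by which they are commonly recognised were followed through mouse duct epithelium and duct organoids. The genes Dclk1, Pou2f3, Trpm5, Gnat3, Avil, Il25, Alox5, Ptgs1 and Sh2d6 were chosen by symbol, and all 9 were found among the 31228 genes of the deposited table. RNA had been sequenced from 8 libraries of the C57BL/6 mouse strain. One library came from epithelium of the extrahepatic bile duct and 1 from epithelium of the pancreatic duct, both put into Trizol straight after dissection and collagenase digestion. The other 6 libraries were 3 organoid cultures from bile duct and 3 from pancreatic duct, kept for 3 to 4 passages in Matrigel. Organoids are hollow cultures of epithelial cells in a gel, and the medium held EGF, R-spondin, Noggin, FGF10 and nicotinamide, with Wnt3A and the kinase inhibitor Y27632 removed once hollow organoids had formed. No library had a gene deletion, a transgene or a drug as its variable, and an age is not given in the sources used here. In the following, BD and PD epithelium stand for the bile duct and pancreatic duct libraries put straight into Trizol, and BD and PD organoids for the cultures from these ducts. The labels do not state whether the cultures came from separate mice, so p-values measure only the spread between these samples, which may be technical.

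Tuft cells arise in gut, airway, gallbladder and duct epithelium under the transcription factor POU2F3 and use the signalling chain of taste cells, in which a G protein leads to opening of the cation channel TRPM5. They are known for secreting the cytokine IL-25, which activates type 2 immunity, and for making leukotrienes and prostaglandins with the enzymes that Alox5 and Ptgs1 encode. In the normal mouse, tuft cells are a regular part of the bile duct and gallbladder epithelium, whereas in the pancreas they are scarce and become frequent in injury and in early neoplasia. In bulk RNA, fewer cells of a type and less RNA per cell cannot be told apart.

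The values are FPKM, that is reads scaled to exon length and to the depth of the library, and they let the read number behind the values of all 9 members be recovered. The libraries held between 12876470 and 20828217 implied reads. All 12 duct epithelium markers reached at least 1 FPKM in BD epithelium and 11 of 12 did in PD epithelium, and they summed to 2662, 651 and 5789 to 11653 FPKM in BD epithelium, PD epithelium and the organoids. Both epithelium libraries also held acinar enzyme genes (18144 and 37358 FPKM over 10 genes), fibroblast genes (3106 and 2629 FPKM over 10 genes) and leukocyte genes (533 and 484 FPKM over 16 genes), so neither is epithelium alone. In the organoids the acinar genes summed to at most 9.13 FPKM and the fibroblast genes to at most 49.3 FPKM. Among the organoids, BD organoid 1 stood apart from BD organoids 2 and 3, with a chi-square per gene of 107 and 106 against 17.6 between the other two, and PD organoids 2 and 3 differed by 102.

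The sequences just before the transcription start are shown for the 4 members that were furthest apart between the epithelia on the log2(scaled FPKM + 1) scale used below, since POU2F3 belongs to the POU family, whose members bind the octamer ATGCAAAT. RefSeq windows from 250 bases before to 50 bases after the start (build GRCm38.p6) existed for 7 of the 9 members and gave 8 windows, because Dclk1 has 2 starts. Printed 5′ to 3′ on the strand of the gene, the 250 bases before the start are those of Trpm5 at chr7:143094643-143094892 (minus strand), Gnat3 at chr5:17962320-17962569 (plus strand), Avil at chr10:127000459-127000708 (plus strand) and Sh2d6 at chr6:72520037-72520286 (minus strand). Capitals mark ATGCAA, the first letters of the octamer, or its reverse complement TTGCAT.
Trpm5: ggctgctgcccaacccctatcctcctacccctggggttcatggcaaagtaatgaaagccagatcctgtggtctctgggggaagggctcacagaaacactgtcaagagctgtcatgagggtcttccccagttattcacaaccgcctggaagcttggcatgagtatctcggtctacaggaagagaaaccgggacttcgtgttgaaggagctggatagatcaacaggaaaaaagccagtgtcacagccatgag
Gnat3: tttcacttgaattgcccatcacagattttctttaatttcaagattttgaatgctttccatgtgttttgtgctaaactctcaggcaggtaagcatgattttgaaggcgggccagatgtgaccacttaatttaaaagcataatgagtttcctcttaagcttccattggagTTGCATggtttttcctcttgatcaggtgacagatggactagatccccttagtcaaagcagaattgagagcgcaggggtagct
Avil: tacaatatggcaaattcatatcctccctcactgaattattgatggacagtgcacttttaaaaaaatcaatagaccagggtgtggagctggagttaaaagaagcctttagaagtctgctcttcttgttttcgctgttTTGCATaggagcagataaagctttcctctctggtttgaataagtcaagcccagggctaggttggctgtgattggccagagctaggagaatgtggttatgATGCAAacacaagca
Sh2d6: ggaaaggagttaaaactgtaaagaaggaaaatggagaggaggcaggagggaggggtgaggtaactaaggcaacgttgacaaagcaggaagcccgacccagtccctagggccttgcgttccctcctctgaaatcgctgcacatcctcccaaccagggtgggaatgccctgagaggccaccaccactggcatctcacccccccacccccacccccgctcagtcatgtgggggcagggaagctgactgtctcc
The whole octamer, on either strand, was in 0 of the 8 member windows and in 1.74% of all 32851 windows of this length. The shorter ATGCAA, which every octamer contains, was in 2 of the 8, those of Avil with 2 matches and Gnat3 with 1, and in 10.7% of all windows. These matches describe letters in a window and are not binding sites. The RefSeq start used for Sh2d6 lies inside the span that the deposited table gives this gene.

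Pou2f3 (ENSMUSG00000032015, GRCm38 chromosome 9, 43123939 to 43210369) encodes the transcription factor on which tuft cells depend. It had 0.503 FPKM from 20 reads in BD epithelium and 0.0629 FPKM from 3 reads in PD epithelium. BD organoids 1, 2 and 3 had 0, 0.0324 and 0.158 FPKM (0, 2 and 9 reads), and PD organoids 1, 2 and 3 had 0.168, 0.258 and 0.327 FPKM (8, 14 and 21 reads). BD epithelium was therefore highest of the 8 libraries by value. Its 95% interval (0.307 to 0.777 FPKM) overlapped those of all 3 PD organoids, such as 0.202 to 0.499 FPKM in organoid 3. Every PD organoid lay above PD epithelium by value, organoid 1 within its interval (0.0130 to 0.184 FPKM). The interval of PD organoid 2 (0.141 to 0.432 FPKM) overlapped that of PD epithelium too. The ratio of bile duct to PD epithelium was 8.002, with an exact 95% interval of 2.37 to 42.1. Here and below such intervals cover counting error only.

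Trpm5 (ENSMUSG00000009246, chromosome 7, 143069153 to 143094642), the cation channel at the end of the taste signalling chain, was far higher in bile duct than in PD epithelium. It had 2.46 FPKM from 203 reads in BD epithelium and 0.0405 FPKM from 4 reads in PD epithelium, a ratio of 60.9 (interval 23.4 to 226). BD organoids 1, 2 and 3 had 0.0790, 0.133 and 0.0935 FPKM, and PD organoids 1, 2 and 3 had 0.162, 0.231 and 0.113 FPKM, from 9 to 26 reads each. All 6 organoids thus lay between the epithelia, far below BD epithelium, and the lowest of them were within the interval of PD epithelium (0.0110 to 0.104 FPKM). The library kit does not mark strand, and exons of Trpm5 overlap those of Tssc4 on the opposite strand by 220 bases. Tssc4 had 10.9 and 11.4 FPKM in BD and PD epithelium and 19.5 to 30.3 FPKM in the organoids, and its part in the low Trpm5 values was not tested.

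Gnat3 (ENSMUSG00000028777, chromosome 5, 17962549 to 18019834) encodes gustducin, the G protein subunit of taste cells. It had 1.65 FPKM from 29 reads in BD epithelium and 0 reads in each of the other 7 libraries. Counting 3 reads as the limit that a count of 0 allows, the level in PD epithelium was under 0.143 FPKM. The BD epithelium value was 11.6-fold above this limit. With the counting error of its 29 reads included, the exact 95% interval of the ratio began at 8.85. The same limit was 0.110 to 0.124 FPKM per BD organoid. The BD epithelium value was 13.4-fold above the highest of these limits, leaving out the counting error of its own reads.

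Sh2d6 (ENSMUSG00000052631, chromosome 6, 72513644 to 72521634), an adaptor protein gene with an SH2 domain found among tuft cell genes, followed Trpm5 and Gnat3. It had 4.38 FPKM from 98 reads in BD epithelium and 0.335 FPKM from 9 reads in PD epithelium, a ratio of 13.1 (interval 6.61 to 29.4). BD organoids 1, 2 and 3 had 0, 0.0864 and 0.0313 FPKM (0, 3 and 1 reads), and PD organoids 1, 2 and 3 had 0, 0 and 0.0276 FPKM, with 1 read in organoid 3. Every organoid lay below both epithelia, but the interval of BD organoid 2 (0.0178 to 0.253 FPKM) overlapped that of PD epithelium (0.153 to 0.636 FPKM). The read numbers of Sh2d6 are whole with an exon length of 1737 bases, where GENCODE M21 gives 1690.

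Avil (ENSMUSG00000025432, chromosome 10, 127000709 to 127020994) encodes advillin, an actin-binding protein of the tuft of microvilli. It had 4.89 FPKM from 214 reads in BD epithelium and 1.05 FPKM from 55 reads in PD epithelium, a ratio of 4.67 (interval 3.46 to 6.401). Unlike Trpm5, Gnat3 and Sh2d6, it had 32 or more reads in every organoid, with 1.83, 7.32 and 1.84 FPKM in BD organoids 1, 2 and 3 and 0.764, 4.30 and 0.452 FPKM in PD organoids 1, 2 and 3. Organoid 2 was the highest of its group in both organs, and the groups overlapped. Exons of Avil overlap those of Tsfm on the opposite strand by 165 bases, and Tsfm had 5.03 and 4.43 FPKM in BD and PD epithelium and 12.7 to 16.2 FPKM in the organoids. The part of Tsfm in the Avil values was not tested.

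Il25 (ENSMUSG00000040770, chromosome 14, 54932695 to 54935837), the cytokine gene, was at the edge of detection. It had 1 read in PD epithelium (0.0608 FPKM) and 0 reads in the other 7 libraries, where 3 reads would have given between 0.135 and 0.219 FPKM. A difference between libraries was not detectable at this depth.

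Alox5 (ENSMUSG00000025701, chromosome 6, 116410077 to 116461178) encodes the lipoxygenase that starts leukotriene synthesis, in tuft cells and in several leukocytes. It had 2.12 FPKM from 112 reads in BD epithelium and 0.930 FPKM from 59 reads in PD epithelium, a ratio of 2.28 (interval 1.65 to 3.18). BD organoids 1, 2 and 3 had 0.0547, 0.0366 and 0.0265 FPKM, from 4, 3 and 2 reads. PD organoids 1, 2 and 3 had 0.0632, 0.249 and 0 FPKM, from 4, 18 and 0 reads. Every organoid lay below both epithelia, and PD organoid 2 was highest of the 6.

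Ptgs1 (ENSMUSG00000047250, chromosome 2, 36230426 to 36252272) encodes the cyclooxygenase COX-1, which makes the precursor of prostaglandins in tuft cells and in many other cells, platelets included. It was the most abundant member in all 8 libraries. It had 18.5 FPKM (927 reads) in bile duct and 19.7 FPKM (1180 reads) in PD epithelium, a ratio of 0.943 (interval 0.864 to 1.03). BD organoids 1, 2 and 3 had 6.81, 50.3 and 39.8 FPKM, and PD organoids 1, 2 and 3 had 22.1, 17.2 and 33.4 FPKM. Organoids of the same organ thus lay on both sides of their epithelium. Exons of Ptgs1 overlap a gene model on the opposite strand, Gm43621, by 148 bases. The 6 platelet genes of the marker list summed to 42.1 and 45.1 FPKM in BD and PD epithelium and to 0.642 to 5.30 FPKM in the organoids, and their part in the Ptgs1 values was not tested.

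Dclk1 (ENSMUSG00000027797, chromosome 3, 55242364 to 55539068) encodes a doublecortin-like kinase that is widely used to stain tuft cells and is also expressed in neurons. It had 2.78 FPKM (548 reads) in bile duct and 2.91 FPKM (687 reads) in PD epithelium, a ratio of 0.957 (interval 0.854 to 1.07). BD organoids 1, 2 and 3 had 2.47, 0.0196 and 0.0569 FPKM, from 672, 6 and 16 reads. PD organoids 1, 2 and 3 had 0.182, 0.468 and 0.185 FPKM, from 43, 126 and 59 reads. BD organoid 1 was close to both epithelia, and the highest organoid was 126-fold above the lowest, the widest span of the 4 members with reads in all 6 organoids (2.93-fold for Trpm5, 7.39-fold for Ptgs1 and 16.2-fold for Avil). Nerve and Schwann cell genes summed to 75.04 FPKM in bile duct and 115 FPKM in PD epithelium over 12 genes, and to 3.19 to 11.5 FPKM in the organoids. Their part in the epithelial Dclk1 values was not tested. Exons of Dclk1 overlap those of Gm21954 by 27 bases and Gm42609 by 87 bases, both on the opposite strand.

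**Figure D1:**
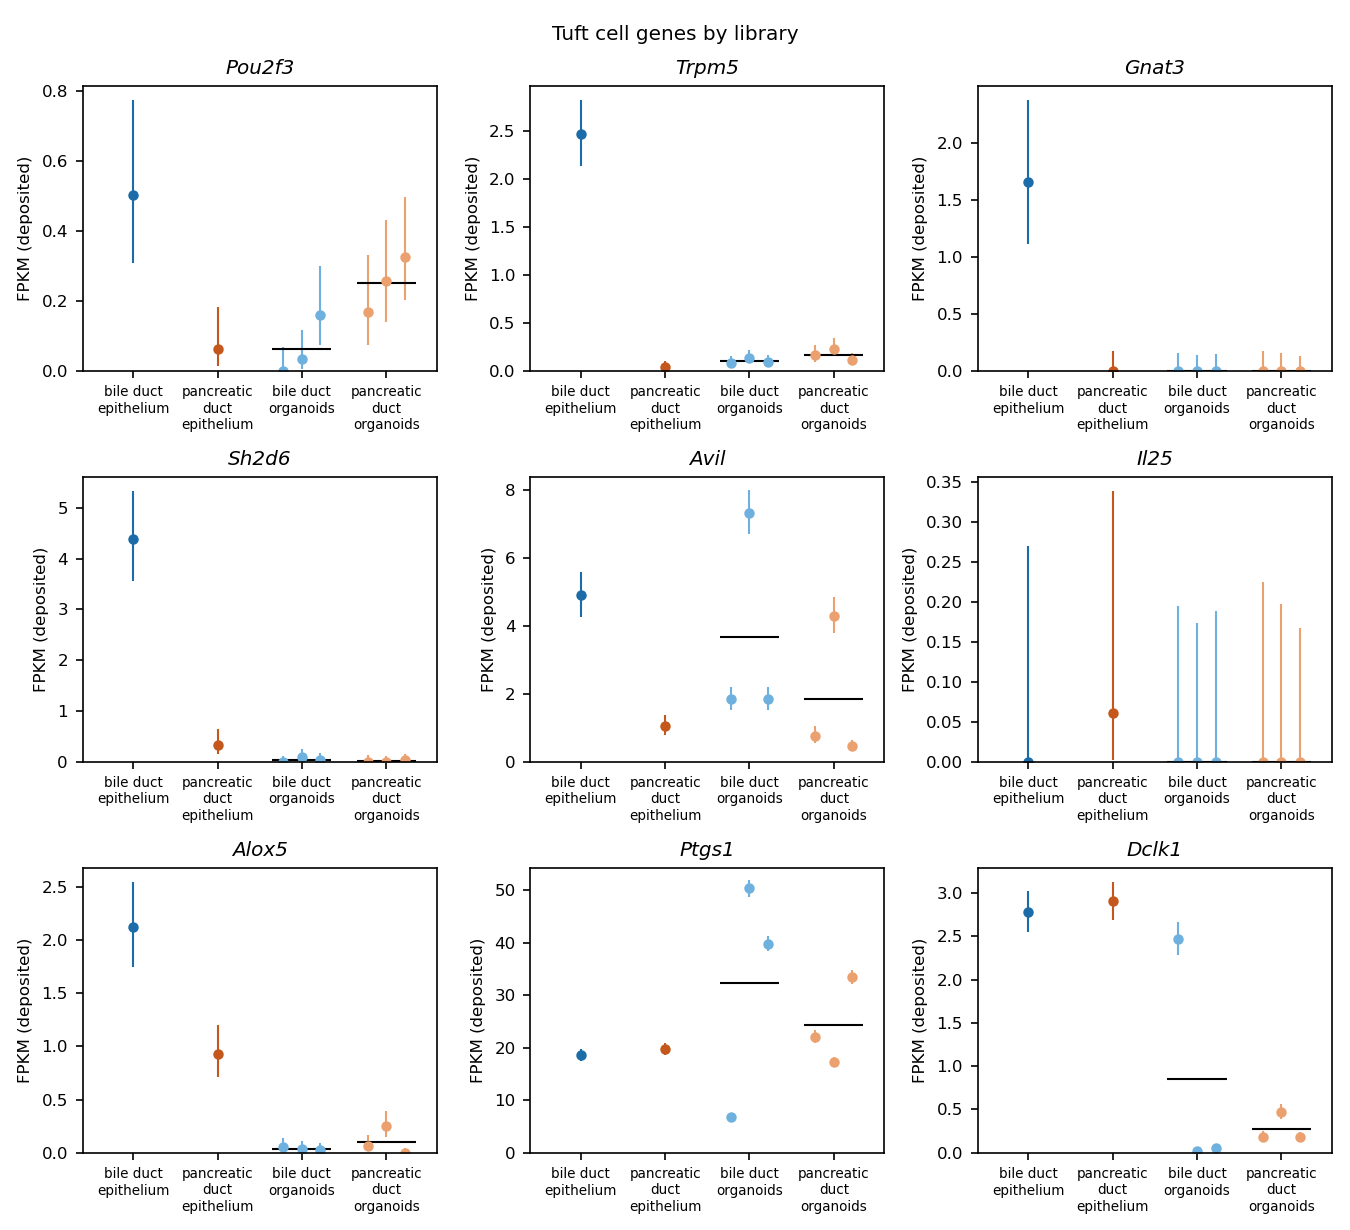
FPKM as deposited (y axis, a separate linear scale from 0 for each gene) of the 9 tuft cell genes in the 8 libraries (x axis), with bars for the exact 95% Poisson interval of each library's reads and black lines for the mean of 3 organoids. Trpm5, Gnat3 and Sh2d6 are highest in BD epithelium and near 0 elsewhere, while Dclk1 and Ptgs1 are level between the epithelia and spread among the organoids of one organ.

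The level of each gene within one library can be ordered because FPKM is per length. In BD epithelium Ptgs1 was first, followed by Avil and Sh2d6, whose intervals overlapped, then Dclk1, Trpm5, Alox5 and Gnat3, each overlapping its neighbour, then Pou2f3 and last Il25. In PD epithelium the order was Ptgs1, Dclk1, then Avil and Alox5 with overlapping intervals, and then Sh2d6, Pou2f3, Il25, Trpm5 and Gnat3, each overlapping the next. Trpm5 and Sh2d6 thus took places beside or above Dclk1 in BD epithelium, whereas in PD epithelium Dclk1 was the second and both were at or under 0.335 FPKM.

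The study compared the epithelia of these ducts, and for this comparison FPKM were scaled between libraries and differences taken as log2(scaled FPKM + 1), which understates the differences of low genes. With 1 library per organ there is no replicate check and no test. Sh2d6 was higher in BD epithelium by 2.12, Trpm5 by 1.87, Avil by 1.58 and Gnat3 by 1.54. Alox5 was higher by 0.72, short of 2-fold on this scale, while Dclk1 and Ptgs1 differed by -0.06 and -0.10. Pou2f3 (0.56) and Il25 (-0.10) were under the minimum of 1 scaled FPKM in either epithelium. Of 7 members measured, 4 were at least 2-fold higher in BD epithelium and 0 in PD epithelium, where the shares over 15524 genes were 9.1% and 4.57%. Gnat3, Trpm5 and Sh2d6 passed the minimum only through the bile duct library, so they had to differ, and their number is no support.

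**Figure D2:**
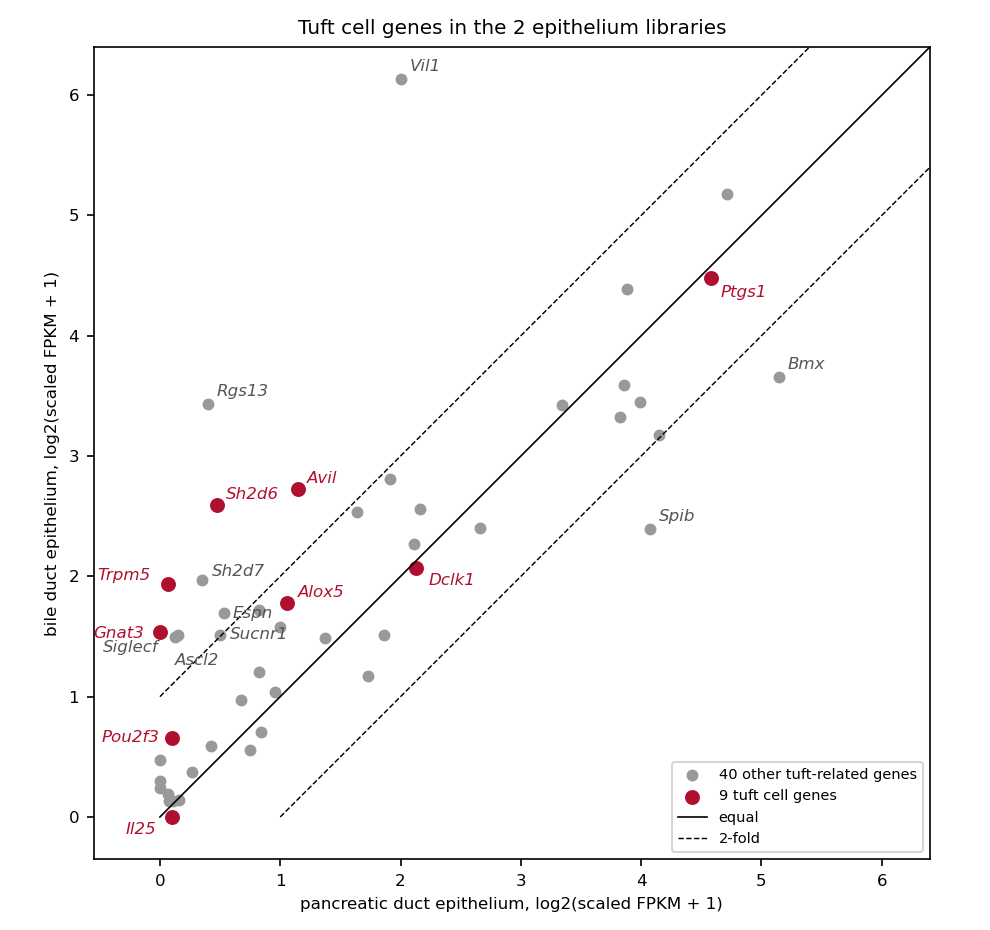
log2(scaled FPKM + 1) in PD epithelium (x axis) and BD epithelium (y axis) of the 9 tuft cell genes in red and 40 other tuft-related genes in grey, with lines for equality and for 2-fold. Sh2d6, Trpm5, Avil and Gnat3 lie above the upper 2-fold line, Dclk1 and Ptgs1 near equality, and Bmx and Spib below the lower line.

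Markers of other cell types also differed between the epithelia, in both directions. Smooth muscle genes summed to 1934 and 3421 FPKM in BD and PD epithelium, and endothelium genes to 379 and 664 FPKM. Endocrine genes summed to 110 and 206 FPKM, and the sums of acinar, nerve and Schwann cell and platelet genes were also higher in PD epithelium. The 12 intestinal absorptive genes summed to 499 FPKM in bile duct and 28.6 FPKM in PD epithelium and to 12.6 to 48.5 FPKM in the organoids. Of these, 11 were at least 2-fold higher in BD epithelium, with a median log2 difference of 2.87, and Sis and Apoa4 were at 0 in every organoid. Cdx2 was not low there, with 4.45 to 20.7 FPKM in the organoids beside 4.84 and 0.114 FPKM in BD and PD epithelium, and Rbp2 reached 25.03 FPKM in an organoid. The 10 Paneth and goblet cell genes summed to 3074 and 668 FPKM in BD and PD epithelium and 89.7 to 227 FPKM in the organoids. Most of the pancreatic duct sum was Zg16, at 446 FPKM in bile duct and 636 FPKM in PD epithelium. In the organoids Lyz1 was at 0, while Tff3 (29.5 to 148 FPKM) and Spink4 (13.4 to 97.7 FPKM) lay above their PD epithelium values of 5.25 and 10.7 FPKM. Of the 10 genes, 9 were at least 2-fold higher in BD epithelium, with a median of 5.57. Small intestine is rich in tuft cells as well. Duct epithelium genes were also higher in BD epithelium, 11 of 12 by at least 2-fold with a median of 1.91, and so were 6 of 10 mast cell and basophil genes (54.4 against 4.95 FPKM). The mast cell and basophil list summed to 2.24 to 24.9 FPKM in the organoids, where Cpa3, Cma1, Tpsb2, Fcer1a and Ms4a2 were at 0, while Mcpt1 had 1.40 to 19.9 FPKM and Mcpt2 had at least 0.791 FPKM, above their 0.126 and 0 FPKM in PD epithelium. The part of any of these in the difference of the tuft cell genes was not tested.

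**Figure D3:**
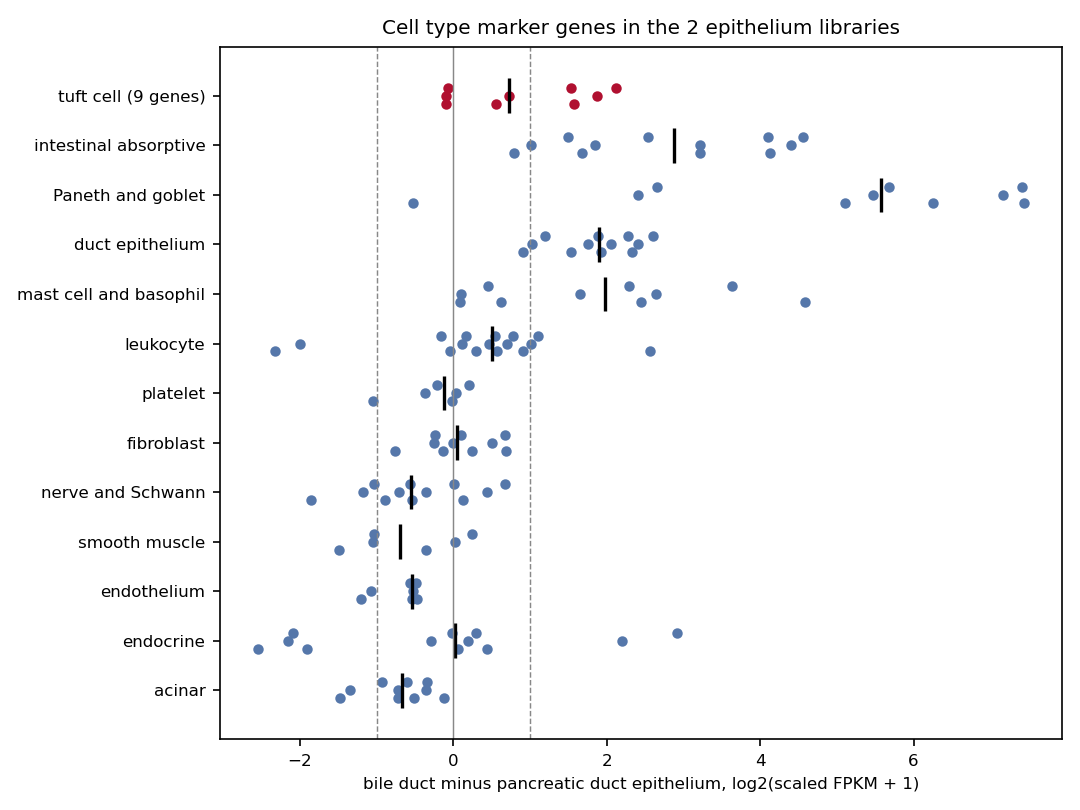
Log2 difference of scaled FPKM + 1 between BD and PD epithelium (x axis; positive is higher in bile duct) for each gene of the tuft cell set and of 12 cell type marker lists (y axis), with a black line at each median and dashed lines at 2-fold. The medians of the intestinal absorptive (2.87), Paneth and goblet (5.57), mast cell and basophil (1.97) and duct epithelium (1.91) lists lie to the right of 2-fold, as do 4 of the 9 tuft cell genes.

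The organoids were then compared with the single epithelium library of the same duct, which again allows no test. It shares the bile duct or pancreatic duct library with the comparison of the epithelia. Scaling shifted log2 FPKM in organoids relative to epithelium by -0.27 in bile duct and -0.28 in pancreatic duct, and low genes by less once 1 is added. In bile duct, Sh2d6 was lower in the organoids by 2.54 ± 0.06 on the log2(scaled FPKM + 1) scale, Trpm5 by 1.80 ± 0.03, Alox5 by 1.73 ± 0.02 and Dclk1 by 1.44 ± 1.00 (SD, n = 3 organoids). Gnat3 was lower by 1.54, with 0 reads in all 3 organoids. These 5 of 7 members measured were at least 2-fold lower with every organoid on the same side, and 0 were higher, where the shares over 15424 genes were 26.3% lower and 12.5% higher. All 5 passed the minimum only through the epithelium, so they had to be lower, and their number is no support. Without BD organoid 1 the Dclk1 difference was -2.02. Avil differed by -0.76 ± 0.87, with organoids on both sides of the epithelium. Its difference was -0.52 without organoid 1, -1.26 without organoid 2, which brings it past 2-fold, and -0.49 without organoid 3. Ptgs1 differed by 0.12 ± 1.43, also with organoids on both sides, and by 0.94 without organoid 1, -0.38 without organoid 2 and -0.21 without organoid 3.

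In pancreatic duct, 1 of 4 members measured, Dclk1, was at least 2-fold lower in the organoids, by 1.80 ± 0.18 (SD, n = 3), and 0 were higher, where the shares over 15191 genes were 25.3% lower and 15.2% higher. Dclk1 and Alox5 passed the minimum only through the epithelium. Alox5 was lower by 0.92 ± 0.16, and by 1.01 without PD organoid 2, which brings it past 2-fold. Avil differed by 0.08 ± 1.01 and Ptgs1 by -0.03 ± 0.42, again with organoids on both sides, and both changed direction without organoid 2. Avil was at -0.50 without PD organoid 2, 0.29 without organoid 1 and 0.44 without organoid 3. Ptgs1 was at 0.16 without PD organoid 2, -0.0069 without organoid 1 and -0.25 without organoid 3, and at 0.24 on the values as deposited. Sh2d6, Trpm5, Pou2f3, Gnat3 and Il25 were under the minimum of 1 scaled FPKM in both PD epithelium and the organoid mean. On the same scale Sh2d6 differed by -0.46, Trpm5 by 0.15 ± 0.08 and Pou2f3 by 0.20 ± 0.08. Most leukocyte genes were also lower in the organoids, 13 of 16 being below both epithelia in every organoid, and S100a8 and S100a9 were not. Cd14 went the other way, with 55.8 and 51.0 FPKM in BD and PD epithelium and 167 to 442 FPKM in the organoids, where it made up most of the list's sum of 172 to 458 FPKM. Ptprc, the common leukocyte antigen, had 4.86 and 5.44 FPKM in BD and PD epithelium and at most 0.00820 FPKM in an organoid. Their part in the Alox5 difference was not tested.

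**Figure D4:**
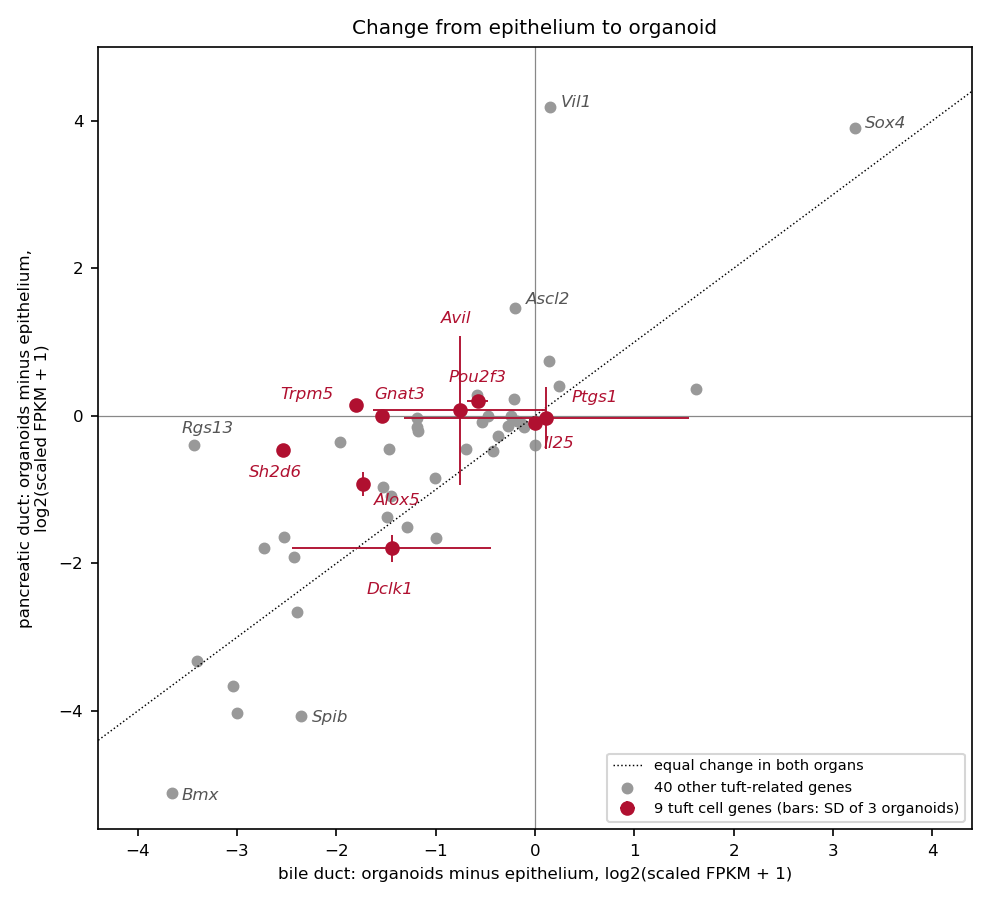
Log2 difference of organoids minus epithelium (scaled FPKM + 1) in bile duct (x axis) and pancreatic duct (y axis) for the 9 tuft cell genes in red, with bars for the SD of 3 organoids, and 40 other tuft-related genes in grey. Sh2d6, Trpm5 and Gnat3 lie between -2.54 and -1.54 on the x axis and between -0.46 and 0.15 on the y axis, and Dclk1 lies below 0 on both axes.

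BD and PD organoids were compared with limma over 12094 genes that had at least 1 scaled FPKM in at least 3 organoids. Avil and Ptgs1 were the members tested, and 0 of 2 passed, where 0% of all genes had a Benjamini-Hochberg adjusted p under 0.05. An unadjusted p under 0.05 was found for 307 genes (2.54%) and 0 members, and a voom fit of the recovered reads called 1 gene of 12291 and 0 members. Without PD organoid 3, limma called 11 of 11841 genes and 0 members. Avil was higher in BD organoids by 0.76 (SE 0.64, n = 3 each, limma adjusted p = 1.00) and Ptgs1 by 0.06 (SE 0.69, limma adjusted p = 1.00). The Avil difference was 0.25 without BD organoid 2, 0.39 without PD organoid 3 and 1.35 without PD organoid 2 (limma unadjusted p = 0.0473, adjusted p = 1.00). The direction for Ptgs1 turned in 3 of the 6 fits that leave out 1 organoid, with -0.44 without BD organoid 2, -0.26 without BD organoid 3 and -0.13 without PD organoid 2. It was 0.88 without BD organoid 1 (limma unadjusted p = 0.0204, adjusted p = 0.566), 0.02 without PD organoid 1 and 0.28 without PD organoid 3.

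For all members an exact two-sided permutation test of mean log2(scaled FPKM + 1) was also run, which cannot go below 0.1 with 3 organoids a group. Its p was 0.1 for Pou2f3, 0.2 for Trpm5, 0.4 for Avil and Sh2d6, 0.6 for Alox5 and 1 for Dclk1 and Ptgs1, while Gnat3 and Il25 were at 0 in all 6 organoids. Pou2f3 was the member whose groups did not overlap, with 0 to 0.158 FPKM in bile duct and 0.168 to 0.327 FPKM in PD organoids. Non-overlapping groups occurred in 5.5% of the 26795 genes above 0 in at least 1 organoid. The highest bile duct value of Pou2f3 rested on 9 reads and the lowest pancreatic duct value on 8 reads, so these closest values differed by less than counting error.

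The 4 members with reads in all 6 organoids, Dclk1, Trpm5, Avil and Ptgs1, gave 6 pairs, and log2(FPKM + 0.1) was correlated over the 6 organoids for each. The pairs were chosen after the values were seen, so the coefficients are a description with no test. Dclk1 and Ptgs1 had a Pearson r of -0.98 and a Spearman rho of -0.94. Without the 2 organoids farthest from the median in Dclk1 the r was -0.89, and it was -0.9996 within the 3 bile duct and -0.78 within the 3 PD organoids. The other 5 pairs had a Pearson r of -0.17 to 0.29 over the 6 organoids. High values in part of the organoids were not particular to Dclk1 and Ptgs1. Trpm5 and Avil had 0.958 within the 3 bile duct and 0.959 within the 3 PD organoids. Without the 2 organoids farthest from the median in Trpm5 they had -0.02. Dclk1 and Trpm5 had 0.92 without the 2 farthest in Dclk1, but -0.78 within bile duct and 0.87 within PD organoids.

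Other genes also varied among the organoids. The 8 proliferation genes summed to 184, 305 and 328 FPKM in BD organoids 1, 2 and 3 and to 224, 134 and 286 FPKM in PD organoids 1, 2 and 3. Sox4, a transcription factor gene expressed in early tuft cells and in many immature epithelial cells, had 74.2, 18.5 and 13.9 FPKM in BD organoids 1, 2 and 3 and 50.5, 94.7 and 36.3 FPKM in PD organoids 1, 2 and 3. The part of these differences in the relation of Dclk1 and Ptgs1 was not tested.

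**Figure D5:**
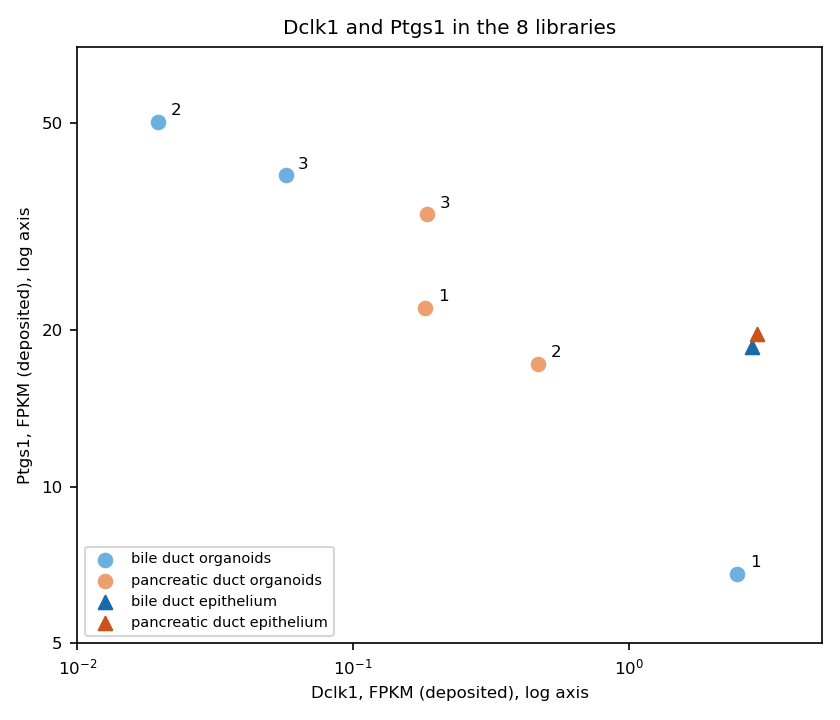
FPKM as deposited of Dclk1 (x axis, log) and Ptgs1 (y axis, log) in the 6 organoids, numbered within each organ, and in the epithelia as triangles. Ptgs1 runs from 50.3 FPKM in BD organoid 2, which had 0.0196 FPKM of Dclk1, down to 6.81 FPKM in BD organoid 1, which had 2.47 FPKM, and the epithelia had 18.5 and 19.7 FPKM of Ptgs1.

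A further 40 genes known from tuft cells were described by role, and several of them are also expressed by leukocytes or by all epithelium. Between the epithelia, 28 were measured, 7 were at least 2-fold higher in BD and 2 in PD epithelium, against the shares of 9.1% and 4.57% above, and their median difference was 0.39 beside -0.03 over all genes. Apart from Vil1, the 7 passed the minimum only through BD epithelium, so they had to differ, and their number is no support. Among 10 taste signalling genes, Rgs13, a regulator of G protein signalling, had 8.54 FPKM (182 reads) in bile duct and 0.274 FPKM (7 reads) in PD epithelium, a ratio of 31.2 (interval 14.8 to 78.7). The succinate receptor gene Sucnr1 had 1.61 and 0.355 FPKM. By contrast Plcb2, the phospholipase that acts between gustducin and TRPM5, was level at 1.58 FPKM (134 reads) and 1.36 FPKM (139 reads), a ratio of 1.16 (interval 0.906 to 1.48). In PD epithelium these 3 genes were unequal, with 1.36 FPKM of Plcb2 beside 0.0405 FPKM of Trpm5 and 0 of Gnat3, whose limit at 3 reads was 0.143 FPKM. PLCB2 is also expressed in leukocytes, and their part in the Plcb2 values was not tested.

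Of 7 regulators, Ascl2 was higher in BD epithelium (1.58 against 0.0797 FPKM, from 33 and 2 reads) and Spib, which B cells also express, in PD epithelium (3.71 against 13.6 FPKM). The B cell gene Cd79a was higher there too, at 10.8 against 45.1 FPKM, and its part in the Spib value was not tested. Among 13 genes for kinases, adaptors and cytoskeleton, Vil1, the villin of microvilli that all intestinal absorptive cells carry, had 60.3 and 2.59 FPKM. Sh2d7, an adaptor gene related to Sh2d6, had 2.53 FPKM (90 reads) and 0.235 FPKM (10 reads), a ratio of 10.8 (interval 5.61 to 23.3), and its exons overlap those of Cib2 on the opposite strand by 227 bases. Espn, an actin-bundling protein gene, had 1.94 and 0.383 FPKM, whereas the kinase gene Bmx had 10.1 and 29.6 FPKM. Of 10 effector and receptor genes, Siglecf was higher in BD epithelium, at 1.61 against 0.0928 FPKM.

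From epithelium to organoid, 20 of 29 of these genes were at least 2-fold lower in bile duct and 13 of 21 in pancreatic duct, where the shares over all genes were 26.3% and 25.3%. Their median differences were -1.45 and -1.50, beside -0.09 and -0.08 over all genes. Many of them passed the minimum only through the epithelium, so these numbers describe the list and support nothing. Rgs13 and Sh2d7 had 0 reads in all 6 organoids. Their BD epithelium values were 83.9-fold and 41.5-fold above the highest level of 3 reads in a BD organoid. These folds leave out the counting error of the epithelium. Plcb2 had 1 read in the 6 organoids together. The part of the leukocyte genes described above in these values was not tested.

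At least 2-fold higher in the organoids were 2 of these genes in bile duct and 3 in pancreatic duct, where the shares over all genes were 12.5% and 15.2%. Nebl in bile duct and Ascl2 in pancreatic duct passed the minimum only through the organoids, so they had to be higher. Relative to epithelium, Sox4 was higher by 3.22 ± 1.30 in BD organoids and by 3.90 ± 0.73 in PD organoids (log2, SD, n = 3 each). The single exon of Sox4 overlaps the non-coding gene Gm26735 on the opposite strand by 2616 bases. Nebl, an actin-binding protein gene, was higher by 1.62 ± 0.27 in bile duct, and in pancreatic duct Vil1 was higher by 4.19 ± 0.52 and Ascl2 by 1.46 ± 0.09. Between the organoid groups 10 of these genes were tested, 0 passed limma's adjusted threshold, and their median difference was -0.17 beside 0.01 over all genes. Nebl had 3.04, 4.93 and 3.38 FPKM in BD organoids 1, 2 and 3 and 1.01, 1.86 and 0.863 FPKM in PD organoids 1, 2 and 3. Its groups did not overlap, which 6.76% of the tested genes shared, and its difference of 1.10 (SE 0.24) had a limma unadjusted p of 0.00318 and an adjusted p of 1.00.

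The genes whose pattern over the 8 libraries was most like the mean log2(scaled FPKM + 1) of the 9 members were taken from 13229 protein-coding genes. Among the 5 most alike were Rab4a (Pearson r = 0.990), Slc25a34 (0.986), Apoa1 (0.981) and Gal3st2 (0.978). Apoa1, an apolipoprotein gene of the intestinal absorptive list, had 129.7 FPKM in bile duct and 5.23 FPKM in PD epithelium and at most 1.13 FPKM in an organoid. These coefficients describe 8 libraries, of which BD epithelium was the highest for each gene named.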

How the data were processed

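Polyadenylated RNA of 8 libraries was sequenced after NEBNext Ultra preparation, which does not mark strand, per the labels' protocols. The submitters' processing notes name Bowtie2 2.2.3, HISAT2 2.1.0, TopHat2 and HTSeq 0.6.0 without roles. The authors deposited FPKM. No header names this unit, which was inferred because the values, with GENCODE M21 exon lengths, gave whole reads (within 0.05) in all libraries for 28268 genes (90.5%, where chance gives 10% for a single value). Groups follow the source named in the labels. All sample columns were used.

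FPKM were scaled by an unweighted trimmed mean of log ratios (30% of ratios and 5% of levels trimmed), over 8 libraries, or over the 6 organoids for their comparison. Organoid groups were tested with limma 3.58.1 (R 4.3.3) on log2(scaled FPKM + 1), with Benjamini-Hochberg adjustment. The design had provided for this test for FPKM. Comparisons with 1 epithelium were counted at 2-fold. On simulated data with 200 of 12094 genes changed, the organoid test recovered 74.5% (89.8% of 4-fold changes), with 11 false among 160 calls. The changed genes were drawn only from those above a mean level that Avil did not reach. Recovery for such low genes was therefore not measured. Python 3.11.15 with pandas 2.3.3, numpy 2.4.6, scipy 1.17.1 and matplotlib 3.10.9 made tables and figures. The members, the gene lists and the naming rule were chosen with earlier results of these data known. All 9 members were named. Of the other 40 tuft-related genes, those at least 2-fold apart between the epithelia or called in the organoids were named, and Plcb2, Sox4, Nebl and Cd79a were added after their values were seen. Some genes that met a naming rule are not reported here.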

Additional observations from a re-analysis of the deposited data

Results flagged for a closer look

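Both genes below had all 3 organoids of one duct below their epithelium and all 3 of the other above theirs. With a single library of each epithelium, this opposite direction was not tested. Values are organoid minus epithelium on the log2(scaled FPKM + 1) scale, with the SD of 3 organoids. For Pou2f3 the value was -0.58 ± 0.10 with bile duct cultures (n = 3) and 0.20 ± 0.08 with pancreatic duct cultures (n = 3). It rested on 20 reads in bile duct epithelium and 3 reads in that of pancreatic duct, under the minimum level for both comparisons. For Trpm5 the value was -1.80 ± 0.03 with bile duct cultures and 0.15 ± 0.08 with pancreatic duct cultures, from 203 reads in bile duct epithelium and 4 reads in that of pancreatic duct. In pancreatic duct Trpm5 was under the minimum level. There the counting interval of its epithelium (0.0110 to 0.104 FPKM) overlapped those of organoids 1 and 3.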

How the results depend on the processing

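Between the organoids, 0 members were called under every alternative, with 2 to 7 members tested. The count test planned for recovered reads was not run and voom took its place, chosen after seeing the data. There Dclk1 differed by -0.92, against 0.30 on log2(scaled FPKM + 1). Avil differed by 1.44 there, and by 0.25 to 1.35 when 1 organoid was left out, against 0.76. Ptgs1 ran from -0.44 to 0.88 over the fits that leave out 1 organoid, and was -0.44 without bile duct organoid 2, -0.26 without bile duct organoid 3 and -0.13 without pancreatic duct organoid 2, the reverse of 0.06 with all organoids. The cause was not tested. With the replicate number as a block, 0 members were called and Avil had an unadjusted limma p of 0.00747 (adjusted p = 1.00). In their deviations from the group means, same-numbered organoids correlated at -0.10, -0.44 and 0.48. Deviations within a group are tied to each other, so these values cannot settle whether the numbers pair the samples. With no filter, Pou2f3 had an unadjusted limma p of 0.0182 (adjusted p = 0.984).

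Between the epithelia 4 members were at least 2-fold apart, and 5 with a pseudocount of 0.1, which added Alox5 at 1.10. From bile duct epithelium to organoid the number was 5 to 6 when 1 organoid was left out, Avil joining at -1.26 without organoid 2. From pancreatic duct epithelium to organoid it was 1, and 2 with a pseudocount of 0.1, where Alox5 was at -2.74. Leaving out 1 organoid gave 1 to 2, Alox5 joining at -1.01 without organoid 2. A pseudocount of 0.1 widens the differences of low genes by its construction, with Dclk1 at -3.33 in pancreatic duct and, in bile duct, Dclk1 at -3.20, Trpm5 at -3.91, Alox5 at -4.21, Gnat3 at -4.32 and Sh2d6 at -5.27. Between the epithelia it gave 4.32 for Trpm5 and Gnat3, 3.39 for Sh2d6 and 2.12 for Avil. Avil in pancreatic duct went from 0.08 to -0.10. Depth limits Il25, Gnat3, Pou2f3 and Sh2d6, which rest on 0 to 21 reads in every library but bile duct epithelium.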
